A study of Mus musculus with 8 samples.

Results

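The lysosome and autophagy genes are 33 genes chosen by name: a spot on the array belonged to the set when the scanner files gave it the name of 1 of them. All 33 genes had a probe, on 47 probes in all, and all 33 entered the test, out of 18028 genes tested. They comprised 10 lysosomal enzymes, 4 parts of the proton pump, 13 genes of the autophagy machinery, and 6 lysosomal membrane proteins and transcription factors. RNA came from B16, a mouse melanoma line grown with fetal bovine serum, and each of 4 groups had 2 biological replicates per the labels. The groups were a control labelled 0 h, cells given SEMA3E for 2 h, cells given SEMA3E for 8 h, and cells given cytochalasin D for 8 h. Plexin D1 is the receptor for SEMA3E, a semaphorin that cells secrete, while cytochalasin D caps actin filaments and halts their growth. Every treated group, at 2 h or 8 h, was set against a 0 h control, so treatment and time in culture cannot be told apart in those comparisons. The same holds for SEMA3E 8 h against SEMA3E 2 h, since no untreated group of either time was among the samples. The dose of neither agent was given in the labels.

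Lysosomes break down material with acid hydrolases, which work because a proton pump, the V-ATPase, keeps the lumen acidic. In autophagy the kinase ULK1 and the lipid kinase complex built around Beclin 1 start a membrane. ATG7, ATG5 and ATG12 then attach proteins of the ATG8 family (the LC3 and GABARAP proteins) to its lipids, and receptors such as p62 bring in the cargo. TFEB and TFE3, relatives of the pigment cell factor MITF, bind an E-box in the promoters of many lysosomal genes. Pigment cells use lysosome-related organelles, the melanosomes, to make and store melanin.

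Values are log2 of the processed signal minus the array's 75th percentile over probes well above background on all 8 arrays, so that a difference of 1 is 2-fold. A level describes its own probe and is not set against the level of another gene. Of the 33 genes, 32 were well above background on all 8 arrays and Tfeb on 7. Before that scaling, 3 arrays had a lower overall signal than the rest. Their 75th percentiles were 59.3 and 61.1 (both SEMA3E 2 h replicates) and 66.8 (replicate 2 of cytochalasin D), against 111 to 154 for the remaining 5. SEMA3E 2 h replicate 2 had 214 outlier spots, against 6 to 24 on each of the other arrays. It also had the lowest share of spots well above background, 37.8%. Over all genes tested, an array correlated best with its own replicate in 3 of 8 cases. The 2 arrays of a group were neighbours on the single slide used, so slide position and group cannot be told apart. All 7 melanocyte markers were well above background on all 8 arrays. Of 5 fibroblast markers, Pdgfra and Thy1 were well above background on 0 arrays, Dcn on 2, and Col1a1 and Col1a2 on all 8, with mean control levels of -4.11 and -3.74. Of 6 macrophage markers, Cd14 and Lyz2 were well above background on 0 arrays, Ptprc on 1, Adgre1 on 3, and Csf1r and Itgam on all 8, with mean control levels of -5.27 and -4.71. The part of such cells in the values below was not tested. The samples are bulk RNA, so fewer cells with a transcript and less of it per cell cannot be told apart.

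None of the 33 genes passed the test in any of the 5 comparisons. The test was limma with Benjamini-Hochberg adjustment over all 18028 genes at an adjusted p under 0.05, two-sided, and the smallest adjusted p of a member was 0.373. The test called few genes of any kind. It called 0% of all genes in SEMA3E 2 h against control, 0.00555% in SEMA3E 8 h against control, and 0% in cytochalasin D against control. It called 0.00555% in cytochalasin D against SEMA3E 8 h and 0% in SEMA3E 8 h against SEMA3E 2 h. The values below therefore describe levels and differences that were not told apart from replicate spread. At an unadjusted p under 0.05, 4 of the 33 genes differed in SEMA3E 2 h against control, where 9.49% of all genes did. There were 3 in SEMA3E 8 h against control (6.13% of all genes) and 0 in cytochalasin D against control (2.44%). There were 3 in cytochalasin D against SEMA3E 8 h (11% of all genes) and 4 in SEMA3E 8 h against SEMA3E 2 h (11.6%).

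By the largest replicate gap of each gene, spread was as large as the differences for most of the set. The range over the 8 arrays ran from 0.46 for Lamp1 to 3.95 for Becn1, with a median of 0.88, and 19 of the 33 genes had a range under 1. In 19 genes the largest gap between 2 replicates of a group exceeded the range of the 4 group means. That gap is the largest of 4 between single arrays, whereas each mean is over 2 arrays. It was not counted over all genes. Replicates differed by more than 2-fold for 5 members in the control group, 3 in SEMA3E 2 h, 0 in SEMA3E 8 h and 2 in cytochalasin D. The same was true of 14.3%, 14.2%, 9.65% and 8.76% of all genes. SEMA3E 8 h had the highest group mean for 16 genes and SEMA3E 2 h for 13. Cytochalasin D had the lowest group mean for 12 genes and control for 10. This order was not counted over all genes or under another scaling. Of all genes, 63.3% had a higher mean in SEMA3E 8 h than in control, and 60.3% were lower with cytochalasin D than in SEMA3E 8 h.

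**Figure D1:**
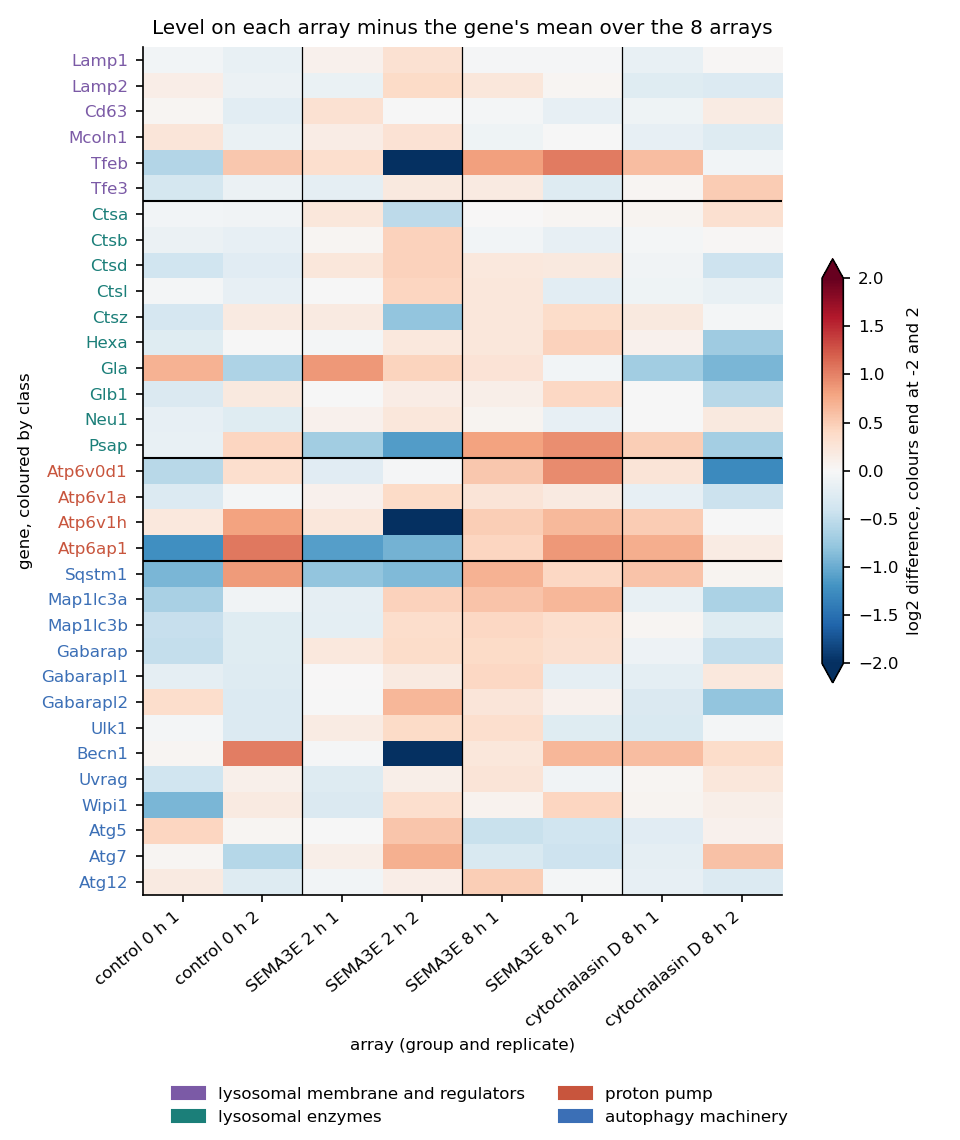
Each cell is the log2 level of 1 gene (vertical axis, coloured by class) on 1 array (horizontal axis) minus that gene's mean over the 8 arrays. The strongest colours are Tfeb, Atp6v1h and Becn1 on SEMA3E 2 h replicate 2, where they were at -7.73, -5.10 and -4.13.

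Against control, 24 of the 33 genes had a higher mean after SEMA3E for 2 h and 28 after SEMA3E for 8 h, whereas cytochalasin D split them into 17 higher and 16 lower. Of all genes tested, 54.9%, 63.3% and 53.4% had a higher mean in these comparisons. The median differences were 0.23, 0.24 and 0.04, beside 0.06, 0.12 and 0.03 over all genes tested. With each array scaled to its 75th percentile over all probes instead, SEMA3E 8 h left 17 genes higher and 16 lower, with a median of 0.02 for the members and -0.10 for all genes. Of all genes, 41.1% were then higher. The members' median minus that of all genes was 0.18 after SEMA3E for 2 h, 0.12 after SEMA3E for 8 h and 0.01 with cytochalasin D, and it depended on the processing. At 2 h it was -0.20 with normexp background correction, where 77.1% of all genes lay above control. With no filter on dim probes it was -0.25 at 2 h and -0.29 at 8 h. There the members kept 24 and 28 higher, and the genes they were set against grew to 34736. Those genes had medians of 0.48 and 0.53. At 8 h the members' median minus that of all genes was 0.27 with quantile normalization and 0.09 with normexp. Without SEMA3E 8 h replicate 1 it was -0.05, and 23 of the 33 genes were higher, beside 64.5% of all genes. These comparisons share their control arrays.

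Groups that did not overlap, both arrays of a treatment lying above or below both controls, were counted next to the same count over all genes. After SEMA3E for 2 h, 11 of the 33 genes lay higher (24.5% of all genes) and 2 lower (15.2% of all genes). After SEMA3E for 8 h, 14 lay higher (25.1% of all genes) and 1 lower (12.4% of all genes). With cytochalasin D, 4 lay higher (15.9% of all genes) and 4 lower (13% of all genes). Cytochalasin D against SEMA3E 8 h gave 4 higher (19.7% of all genes) and 16 lower (32.7% of all genes). SEMA3E 8 h against SEMA3E 2 h gave 10 higher (27.9% of all genes) and 9 lower (22.6% of all genes).

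**Figure D2:**
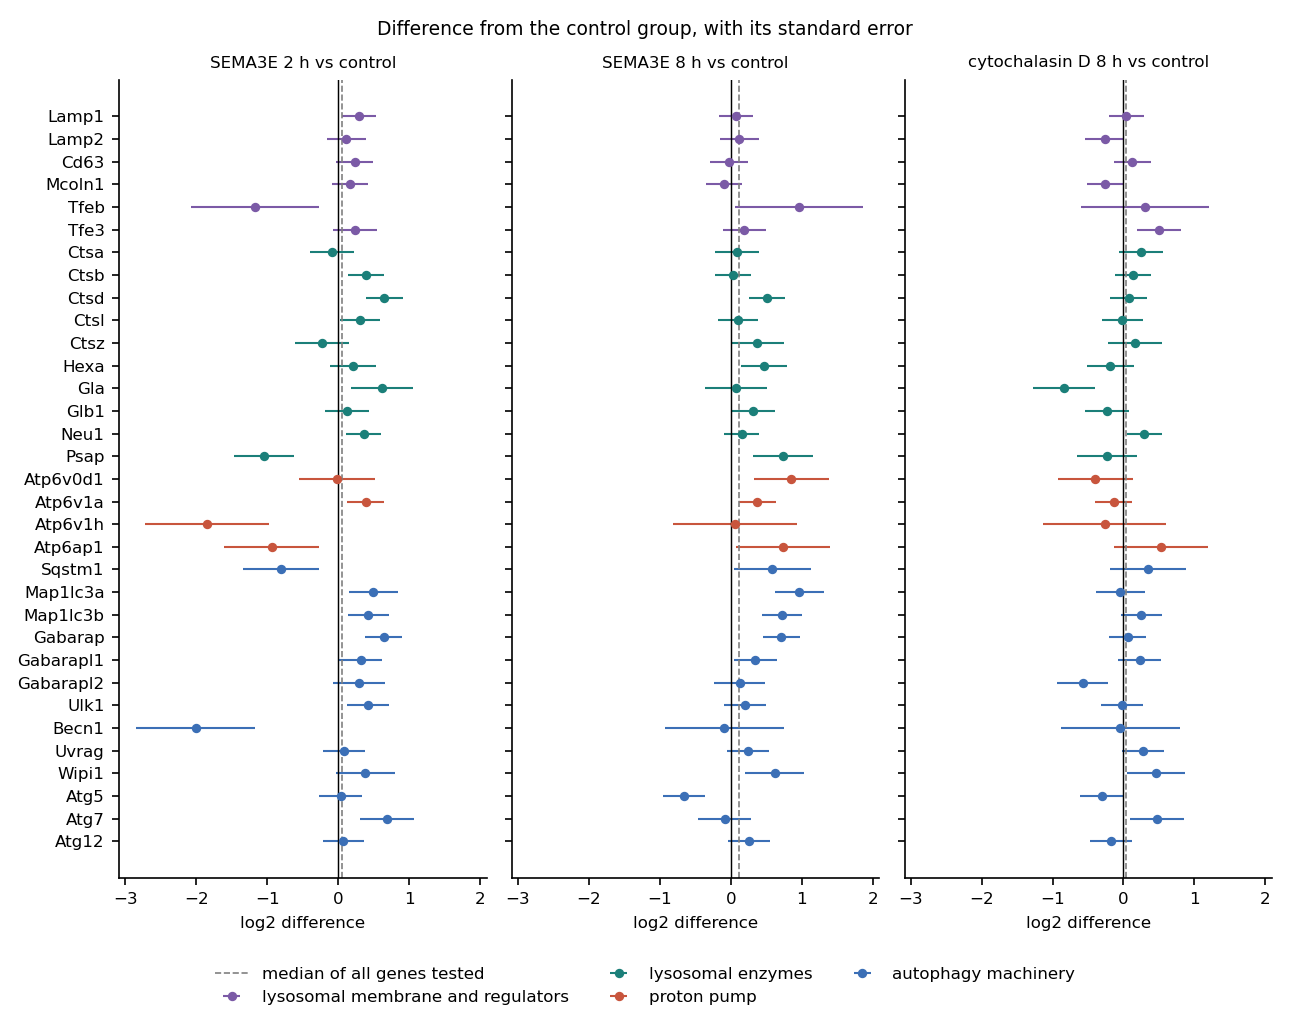
Points are log2 differences from the control group for the 33 genes (vertical axis, coloured by class), with limma's standard error as bars, in 3 panels, 1 per treatment. The dashed line is the median over all genes tested, at 0.06, 0.12 and 0.03, and no point passed the test.

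The class medians had different sizes and directions. The 10 lysosomal enzymes had median differences of 0.26 after SEMA3E for 2 h, 0.23 after SEMA3E for 8 h, where 10 of 10 were higher, and 0.03 with cytochalasin D. Of all genes, 63.3% were higher after SEMA3E for 8 h. At 8 h, 5 of the 10 enzymes were higher, with a median of 0.016, under the 75th percentile over all probes, where 41.1% of all genes were. There were 7 of 10 with the median of detected probes (53.0% of all genes), and 7 of 10 without SEMA3E 8 h replicate 1 (64.5% of all genes). The 13 autophagy genes had medians of 0.32, 0.26 and 0.06. The 4 proton pump genes had medians of -0.48, 0.55 and -0.20. The proton pump median depended on the control arrays, since it was -1.27 after SEMA3E for 2 h without control replicate 1 and 0.31 without control replicate 2. After SEMA3E for 8 h it was 0.01 without control replicate 1. The 6 membrane and regulator genes had medians of 0.20, 0.10 and 0.08. With cytochalasin D set against SEMA3E 8 h, which are matched in time, all 4 class medians lay below 0, from -0.42 for the proton pump to -0.10 for the membrane and regulator genes. That comparison had a median of -0.21 over the 33 genes and -0.13 over all genes. Under the 75th percentile over all probes these were 0.03 and 0.12, so that the direction of the members' median depended on the scaling.

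**Figure D3:**
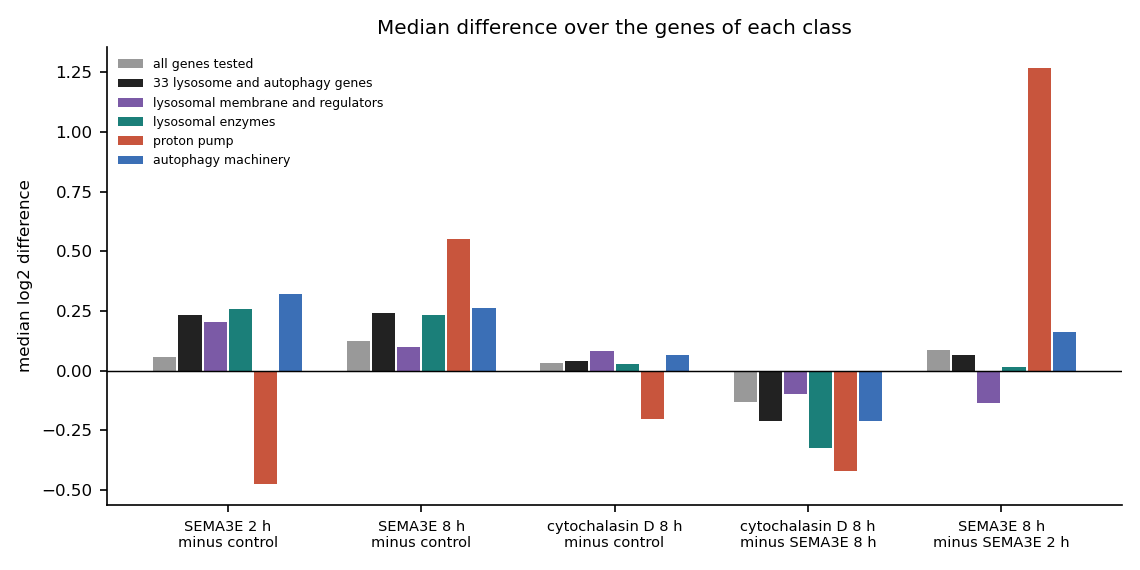
Bars are the median log2 difference (vertical axis) over all 18028 genes tested, the 33 lysosome and autophagy genes and the 4 classes, in 5 comparisons. The proton pump bars run from -0.48 to 1.27 and rest on 4 genes, and the grey bars of all genes run from -0.13 to 0.12.

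The lysosomal membrane genes varied least. Lamp1, a major membrane glycoprotein of the lysosome, had a control level of 3.37 ± 0.07 (SD, n = 2) and a range of 0.46. Lamp2, whose splice forms include the receptor of chaperone-mediated autophagy, had a control level of 0.97 ± 0.17 and ran from 0.69 to 1.34. Cd63, a tetraspanin also found in melanosomes, had a control level of 4.08 ± 0.19 and ran from 3.95 to 4.48. Mcoln1, the calcium channel TRPML1, gave -0.12 and -0.50 in control, -0.21 and -0.07 after SEMA3E for 2 h, -0.45 and -0.37 after SEMA3E for 8 h, and -0.52 and -0.62 with cytochalasin D. Both cytochalasin D arrays were below both controls, and the SEMA3E groups overlapped the controls. Its difference after SEMA3E for 8 h was -0.10 ± 0.26 (SE, limma, adjusted p = 0.977).

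Among the 5 cathepsins, Ctsd, an aspartic protease, showed the largest difference at 2 h. It gave 2.35 and 2.52 in control, 2.97 and 3.20 after SEMA3E for 2 h, 2.96 and 2.93 after SEMA3E for 8 h, and 2.68 and 2.34 with cytochalasin D. All 4 SEMA3E arrays were above all 4 others. The difference after SEMA3E for 2 h was 0.65 ± 0.26 (SE, limma, adjusted p = 0.518), which did not pass the test, and a second Ctsd probe gave -0.76. Ctsb, a cysteine protease, had a control level of 2.79 ± 0.04 (SD, n = 2) and ran from 2.76 to 3.38, with the highest value on SEMA3E 2 h replicate 2. Ctsl, another cysteine protease, had a control level of 1.69 ± 0.09 and ran from 1.58 to 2.22. Ctsz, a carboxypeptidase, had a control level of 2.31 ± 0.37 and ran from 1.60 to 2.76. Ctsa, a carboxypeptidase that also stabilises the enzymes encoded by Glb1 and Neu1, had a control level of 2.61 ± 0.0049 and ran from 2.16 to 2.99. Ctsa and Ctsz were lowest on SEMA3E 2 h replicate 2, the array on which Ctsb and Ctsl were highest.

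Psap encodes the precursor of the saposins, which present lipids to glycosidases, and it had the smallest p of the set. It gave -0.27 and 0.31 in control, -0.81 and -1.22 after SEMA3E for 2 h, 0.69 and 0.82 after SEMA3E for 8 h, and 0.37 and -0.79 with cytochalasin D. Both 2 h arrays were below both controls and both 8 h SEMA3E arrays above them, while the cytochalasin D arrays spanned the controls. The difference between SEMA3E 8 h and SEMA3E 2 h was 1.78 ± 0.42 (SE, limma, adjusted p = 0.373). Against control it was -1.04 ± 0.42 at 2 h (limma, adjusted p = 0.518). The 3 arrays on which Psap was lowest were the 3 arrays of lowest overall signal, which held for Psap alone among the 33 genes and for 3.05% of all genes. In Lamp1, Ctsb, Neu1 and Atg7, 4 of the 33 genes (12.1%), those 3 arrays were instead the 3 highest, beside 4.03% of all genes. The part of overall signal in these differences was not tested.

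Gla encodes alpha-galactosidase A. It gave 2.82 and 1.51 in control, 2.99 and 2.58 after SEMA3E for 2 h, 2.40 and 2.08 after SEMA3E for 8 h, and 1.44 and 1.22 with cytochalasin D. The controls lay far apart, and both cytochalasin D arrays were below both of them. The difference with cytochalasin D was -0.83 ± 0.44 (SE, limma, adjusted p = 0.9997), and it was -0.17 without control replicate 1 and -1.49 without control replicate 2. Neu1, a sialidase, gave 0.72 and 0.66 in control, 0.99 and 1.12 after SEMA3E for 2 h, 0.95 and 0.73 after SEMA3E for 8 h, and 0.88 and 1.09 with cytochalasin D. All 6 treated arrays lay above both controls, and the 3 highest were the 3 arrays of lowest overall signal. The differences were small, with 0.30 ± 0.25 for cytochalasin D (SE, limma, adjusted p = 0.9997), or 0.19 without cytochalasin D replicate 2. Hexa, a subunit of beta-hexosaminidase, had a control level of 1.18 ± 0.16 (SD, n = 2) and ran from 0.59 to 1.77. Glb1, the lysosomal beta-galactosidase, had a control level of -2.18 ± 0.34 and ran from -2.68 to -1.72. Both were highest on SEMA3E 8 h replicate 2 and lowest on cytochalasin D replicate 2.

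The proton pump has a V1 sector that splits ATP and a membrane sector, V0, that carries protons. Atp6v1h, a regulatory subunit of V1, gave -1.99 and -1.39 in control, -1.97 and -5.10 after SEMA3E for 2 h, -1.71 and -1.55 after SEMA3E for 8 h, and -1.70 and -2.22 with cytochalasin D. A single array, SEMA3E 2 h replicate 2, lay far below the other 7. The 2 h difference of -1.85 ± 0.87 (SE, limma, adjusted p = 0.518) was -0.28 without that array and -3.41 without SEMA3E 2 h replicate 1. Atp6v0d1, a subunit of V0, gave -1.23 and -0.35 in control, -0.91 and -0.70 after SEMA3E for 2 h, -0.13 and 0.26 after SEMA3E for 8 h, and -0.42 and -1.96 with cytochalasin D. Both 8 h SEMA3E arrays were the highest, and the difference between cytochalasin D and SEMA3E 8 h was -1.25 ± 0.53 (SE, limma, adjusted p = 0.453). It was -0.48 without cytochalasin D replicate 2 and -2.02 without replicate 1.

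Atp6ap1, an accessory protein of the pump, gave -3.49 and -1.21 in control, -3.37 and -3.21 after SEMA3E for 2 h, -1.83 and -1.40 after SEMA3E for 8 h, and -1.54 and -2.10 with cytochalasin D. The SEMA3E 2 h arrays matched control replicate 1, and the 8 h arrays lay nearer to control replicate 2. Its second probe followed the first over the 8 arrays, with r = 0.99 as a description of 2 probes on the same arrays. Its difference between SEMA3E 8 h and SEMA3E 2 h was 1.67 ± 0.66 (SE, limma, adjusted p = 0.420). Atp6v1a, the catalytic subunit of V1, had a control level of 1.63 ± 0.17 (SD, n = 2) and ran from 1.36 to 2.18. All 4 SEMA3E arrays were above both controls on the Atp6v1a probe used, with differences of 0.39 at 2 h and 0.37 at 8 h that did not pass the test. They were 0.24 at 2 h without SEMA3E 2 h replicate 2 and 0.25 at 8 h without control replicate 1. A second Atp6v1a probe gave -0.29 and -0.31.

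**Figure D4:**
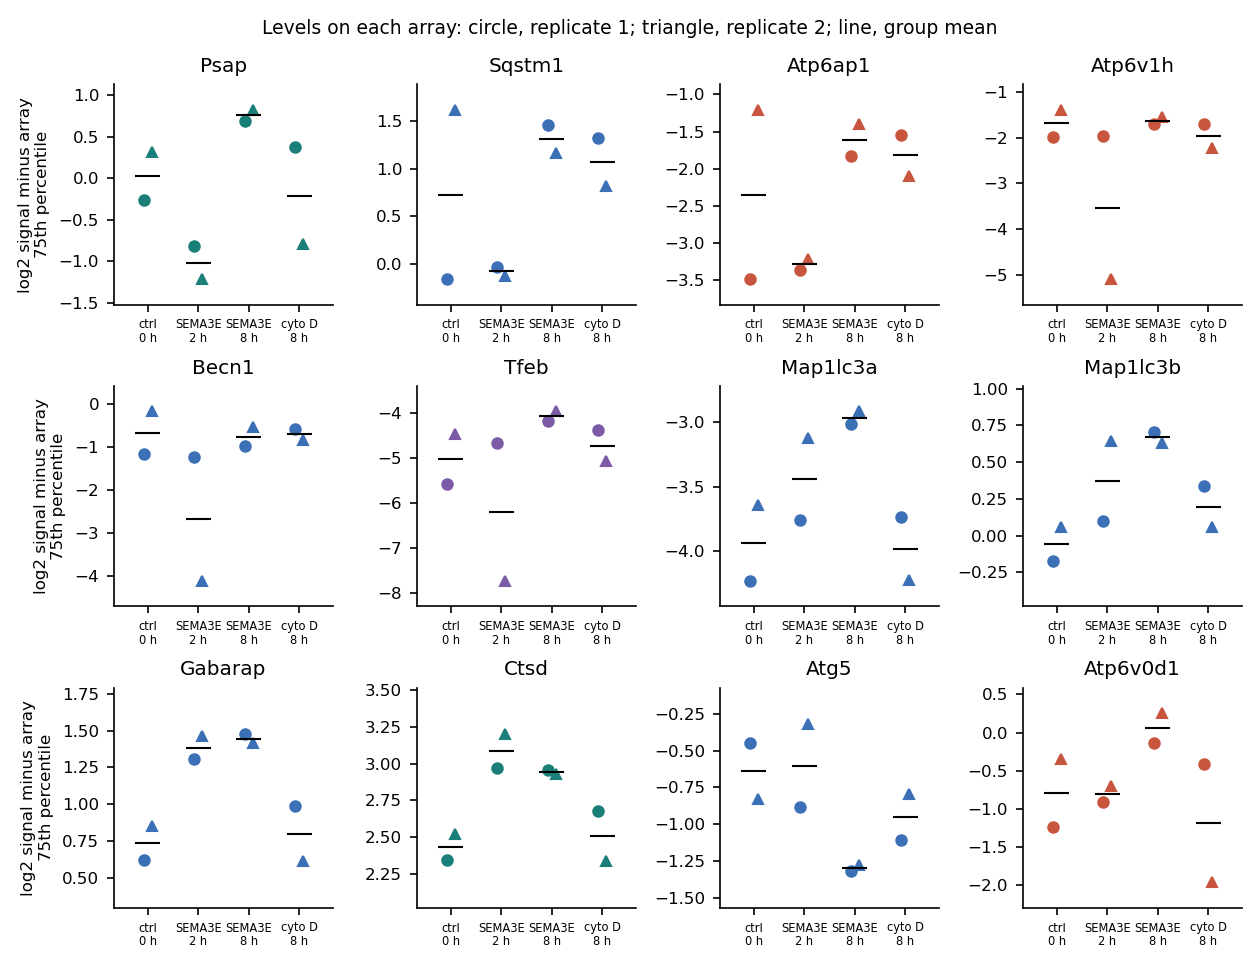
Points are log2 levels (vertical axis) of 12 genes on each array by group (horizontal axis), with replicate 1 as circles, replicate 2 as triangles and the group mean as a line. Psap, Map1lc3a and Gabarap show close 8 h SEMA3E replicates above both controls, whereas in Atp6v1h, Becn1 and Tfeb a single 2 h array is far below the rest.

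The transcription factor Tfeb gave -5.58 and -4.47 in control, -4.66 and -7.73 after SEMA3E for 2 h, -4.18 and -3.96 after SEMA3E for 8 h, and -4.38 and -5.06 with cytochalasin D. Its lowest value was on the same array as that of Atp6v1h. The difference between SEMA3E 8 h and SEMA3E 2 h was 2.13 ± 0.90 (SE, limma, adjusted p = 0.428). It was 0.59 when SEMA3E 2 h replicate 2 was left out and 3.66 when replicate 1 was. Tfeb was well above background on 1 of these 2 arrays. Tfe3 gave 0.79 and 1.04 in control, 0.96 and 1.35 after SEMA3E for 2 h, 1.32 and 0.89 after SEMA3E for 8 h, and 1.18 and 1.65 with cytochalasin D. Both cytochalasin D arrays were above both controls and the SEMA3E groups overlapped them. The difference with cytochalasin D was 0.50 ± 0.31 (SE, limma, adjusted p = 0.9997), or 0.27 without cytochalasin D replicate 2, and a second probe gave 0.24.

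The 5 genes of the ATG8 family had higher means than control after SEMA3E at both times, with medians of 0.43 at 2 h and 0.71 at 8 h, and 0.06 with cytochalasin D. Of all genes, 54.9% were higher after SEMA3E for 2 h and 63.3% after SEMA3E for 8 h. Under the 75th percentile over all probes, 4 of the 5 ATG8 genes were higher at 8 h, with a median of 0.49, beside 41.1% of all genes. Map1lc3a, which encodes an LC3 protein, gave -4.23 and -3.65 in control, -3.76 and -3.13 after SEMA3E for 2 h, -3.02 and -2.92 after SEMA3E for 8 h, and -3.74 and -4.22 with cytochalasin D. Both 8 h SEMA3E arrays were above all 6 others. The differences were 0.97 ± 0.35 for SEMA3E 8 h against control (SE, limma, adjusted p = 0.760) and -1.01 ± 0.35 for cytochalasin D against SEMA3E 8 h (adjusted p = 0.436).

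Map1lc3b, which encodes the LC3 protein most used as a mark of autophagosomes, gave -0.17 and 0.06 in control, 0.10 and 0.64 after SEMA3E for 2 h, 0.71 and 0.63 after SEMA3E for 8 h, and 0.33 and 0.06 with cytochalasin D. The SEMA3E arrays were above both controls. The 8 h difference was 0.72 ± 0.29 (SE, limma, adjusted p = 0.781). Gabarap gave 0.62 and 0.85 in control, 1.30 and 1.46 after SEMA3E for 2 h, 1.47 and 1.42 after SEMA3E for 8 h, and 0.99 and 0.61 with cytochalasin D. All 4 SEMA3E arrays were above all 4 others on the probe used. The differences from control were 0.65 ± 0.26 at 2 h (SE, limma, adjusted p = 0.518) and 0.71 ± 0.26 at 8 h (adjusted p = 0.764). Cytochalasin D against SEMA3E 8 h gave -0.65 ± 0.26 for Gabarap (limma, adjusted p = 0.448).

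Of the other ATG8 genes, Gabarapl1 had a control level of 3.01 ± 0.05 (SD, n = 2) and ran from 2.98 to 3.66. Gabarapl2 gave 0.43 and -0.21 in control, 0.07 and 0.74 after SEMA3E for 2 h, 0.32 and 0.16 after SEMA3E for 8 h, and -0.22 and -0.71 with cytochalasin D. Both cytochalasin D arrays were below both controls, by -0.57 ± 0.36 in the mean (SE, limma, adjusted p = 0.9997), by -0.26 without control replicate 1 and by -0.89 without control replicate 2. The cargo receptor p62, encoded by Sqstm1, gave -0.16 and 1.62 in control, -0.03 and -0.12 after SEMA3E for 2 h, 1.46 and 1.17 after SEMA3E for 8 h, and 1.32 and 0.82 with cytochalasin D. The controls spanned all the treated arrays. SEMA3E 8 h lay above SEMA3E 2 h by 1.39 ± 0.54 (SE, limma, adjusted p = 0.417). A second Sqstm1 probe gave 0.98 in that comparison, and the authors' deposited table gave -0.43.

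Among the initiation genes, Becn1, which encodes Beclin 1, gave -1.16 and -0.17 in control, -1.22 and -4.13 after SEMA3E for 2 h, -0.98 and -0.53 after SEMA3E for 8 h, and -0.58 and -0.83 with cytochalasin D. As in Atp6v1h and Tfeb, SEMA3E 2 h replicate 2 was far below the other 7 arrays. The 2 h difference was -2.01 ± 0.84 (SE, limma, adjusted p = 0.518), and it was -0.56 without that array. Without SEMA3E 2 h replicate 1, which leaves that array alone in its group, Becn1 and Atp6v1h passed the test (limma, adjusted p = 0.0265 and 0.0261), as did 416 of all genes. Ulk1, the starting kinase, had a control level of -0.45 ± 0.16 (SD, n = 2) and ran from -0.59 to 0.09. Uvrag, a partner of Beclin 1, had a control level of -0.36 ± 0.35 and ran from -0.61 to 0.04. Wipi1, which binds the phospholipid that the Beclin 1 complex makes, had a control level of -4.86 ± 0.77 and ran from -5.41 to -4.07.

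The conjugation genes Atg5, Atg7 and Atg12 differed from control by 0.04 to 0.69 after SEMA3E for 2 h. After SEMA3E for 8 h the means of Atg5 and Atg7 lay below control and that of Atg12 lay 0.26 above it. Atg5 gave -0.45 and -0.83 in control, -0.89 and -0.32 after SEMA3E for 2 h, -1.32 and -1.28 after SEMA3E for 8 h, and -1.11 and -0.79 with cytochalasin D. Both 8 h SEMA3E arrays were the lowest of all. The differences were -0.66 ± 0.30 against control (SE, limma, adjusted p = 0.827) and -0.70 ± 0.30 against SEMA3E 2 h (adjusted p = 0.429), the latter -0.41 without SEMA3E 2 h replicate 2. Atg5 with cytochalasin D differed by -0.31 ± 0.30 from control and by 0.35 ± 0.30 from SEMA3E 8 h (limma, adjusted p = 0.9997 and 0.658). The first of these Atg5 values was -0.12 when control replicate 1 was left out. The other was 0.19 when cytochalasin D replicate 2 was left out. Atg12, the protein joined to ATG5, had a control level of -0.62 ± 0.30 (SD, n = 2) and ran from -0.85 to -0.09.

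Atg7 encodes the enzyme that activates ATG12 and the ATG8 proteins. On the probe used it gave -0.82 and -1.43 in control, -0.74 and -0.14 after SEMA3E for 2 h, -1.16 and -1.26 after SEMA3E for 8 h, and -1.04 and -0.27 with cytochalasin D. Both 2 h arrays were above both controls and the 8 h groups overlapped them. On this probe the 3 highest arrays were the 3 of lowest overall signal. The differences from control were 0.69 ± 0.38 at 2 h, -0.09 ± 0.38 at 8 h and 0.47 ± 0.38 with cytochalasin D (SE, limma, adjusted p = 0.559, 0.990 and 0.9997). Against SEMA3E 8 h, cytochalasin D gave 0.56 ± 0.38 (limma, adjusted p = 0.579), and SEMA3E 8 h against SEMA3E 2 h gave -0.77 ± 0.38 (adjusted p = 0.447). The Atg7 difference at 2 h was 0.38 without control replicate 2. Without cytochalasin D replicate 2, Atg7 was 0.088 above control and 0.17 above SEMA3E 8 h. Without SEMA3E 2 h replicate 2, the Atg7 difference between SEMA3E 8 h and SEMA3E 2 h was -0.48. The second Atg7 probe turned the sign of every one of these 5 differences.

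Which probe stands for a gene mattered in this set. Of the 11 genes with several tested probes, the probes gave opposite signs in 5 genes for SEMA3E 2 h against control, in 2 for SEMA3E 8 h and in 3 for cytochalasin D. The second Atg7 probe gave -6.86 and -4.98 in control, -6.01 and -6.16 after SEMA3E for 2 h, -4.26 and -4.26 after SEMA3E for 8 h, and -5.04 and -6.98 with cytochalasin D. Its differences were -0.17 at 2 h and 1.66 at 8 h, and over the 8 arrays it ran against the probe used (r = -0.77, a description of 2 probes on the same arrays). The second Ctsd probe gave -4.59 and -2.09 in control, -4.21 and -4.00 after SEMA3E for 2 h, -1.34 and -1.57 after SEMA3E for 8 h, and -2.40 and -3.99 with cytochalasin D. Its 4 lowest arrays were those of the second Atg7 probe, and the 8 h SEMA3E arrays were highest in both. The other Gabarap probes gave -0.01 and -1.18 at 2 h, and 1.15 and 0.32 at 8 h, so the higher mean at 8 h was shared by all 3 probes and the higher mean at 2 h was not. On the last probe the 8 h SEMA3E arrays, at -4.67 and -5.21, overlapped the controls, at -5.56 and -4.96.

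The first 30 of 60 bases of these probes are shown because they identify which stretch each disagreeing signal came from. The names are those of the scanner files, which place none of these probes on the genome. By RefSeq, Atg7 lies on mouse chromosome 6, Gabarap on 11 and Ctsd on 7.
Atg7, probe used: agagccacacagcctcggtttaagagcact
Atg7, second probe: cttggggtttgatacctttgttgtcatgag
Gabarap, probe used: aatcccttcctttcactatcttctttttgg
Gabarap, second probe: tacttcttgatccggaagcgaattcatctc
Gabarap, last probe: taatttccgagaactgcagaactaaatctc
Ctsd, probe used: gaaggagcaagaggacagaagcaaaactat
Ctsd, second probe: actgtatcggttccatGTAAGTctgaccag
The capitals mark GTAAGT, letters that often begin an intron, searched on the probe's own strand after the sequence had been seen. They occurred in 0.959% of the 55698 probes on the array and in 2 of the 47 probes of the set. The match is a description, since no genome position is given for the probe.

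**Figure D5:**
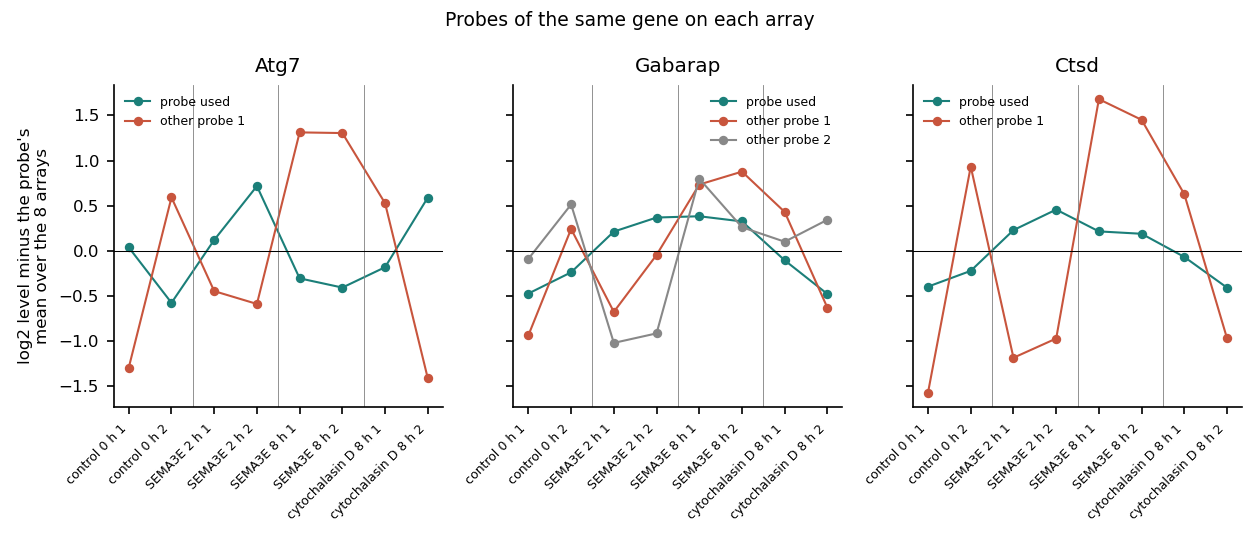
Lines are the tested probes of Atg7, Gabarap and Ctsd on the 8 arrays (horizontal axis), each as log2 level minus that probe's mean (vertical axis). For Atg7 the probe used and the other probe run in opposite directions, with r = -0.77, and for Gabarap all 3 probes are above their mean in both 8 h SEMA3E arrays.

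The promoters were searched for the E-box that TFEB and TFE3 bind. RefSeq promoters of build GRCm38.p6, from 250 bases before to 50 after the start, were at hand for 28 of the 33 genes. The core CACGTG, which reads the same on both strands, was in 11 of the 28 (39.3%) and in 8.09% of 27025 genes. The longer TCACGTG, on either strand, was in 9 of the 28 (32.1%) and in 4.29% of all genes, and every such match contains the core. These 9 genes were Atg7, Atp6v0d1, Atp6v1a, Ctsa, Ctsd, Gla, Glb1, Lamp1 and Mcoln1. The palindrome TCACGTGA was in 6 of the 28 (21.4%) and in 1.12% of all genes. In these shares, all genes are the 27025 with a promoter, not the genes tested on the array. Shares among the tested genes were not counted. The members were chosen by name as lysosome and autophagy genes, and this E-box is one already described in promoters of many lysosomal genes. The choice of members and the motif are therefore not independent, and no conclusion is drawn from the higher shares. Parts of 5 of the members' promoters upstream of the start are shown, with TCACGTG on either strand in capitals, because they hold several copies or the palindrome.
Lamp1, chr8:13159087-13159160, plus strand: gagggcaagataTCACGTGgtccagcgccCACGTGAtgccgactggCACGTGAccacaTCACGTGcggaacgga
Mcoln1, chr8:3500435-3500491, plus strand: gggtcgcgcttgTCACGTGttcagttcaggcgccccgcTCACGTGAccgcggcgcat
Ctsd, chr7:142387908-142387937, minus strand: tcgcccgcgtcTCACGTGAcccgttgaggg
Atp6v1a, chr16:44139373-44139402, minus strand: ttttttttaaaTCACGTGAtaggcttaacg
Gla, chrX:134601182-134601244, minus strand: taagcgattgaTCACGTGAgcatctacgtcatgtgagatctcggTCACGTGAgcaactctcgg

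Genes with and without the longer E-box were compared as a description. The 9 genes with it had median differences from control of 0.30 after SEMA3E for 2 h, 0.09 after SEMA3E for 8 h and -0.14 with cytochalasin D. The 19 genes without it had medians of 0.23, 0.34 and 0.16. The difference between these medians was not tested. Whether TFEB, TFE3 or another factor, such as their relative MITF, bound these E-boxes in B16 was not measured. Lamp1, with 4 copies, differed from control by 0.30 after SEMA3E for 2 h and by 0.08 after SEMA3E for 8 h.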

How the data were processed

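Per the labels, Cy3-labelled cRNA made from total RNA was read in 1 colour, with 1 array per sample. Per the file headers, Agilent Feature Extraction 11.5.1.1 made the deposited processed signal, a linear intensity from which background had been subtracted, not scaled between arrays. The deposited table of the series holds an intensity per gene name and was used as an alternative.

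Control spots were left out, outlier spots were set to missing and spots of a probe were averaged as log2. Testing needed the file's well-above-background mark on each array of some group, which 24668 probes met. A gene took its tested probe with the highest mean. The 75th percentile was taken over 18691 probes detected on all arrays. RefSeq accessions updated gene names for the 27673 of 55698 probes they matched. limma 3.58.1 (R 4.3.3) fitted group means to the 8 arrays (4 residual and 3.39 prior degrees of freedom), tested on simulated data first. A difference had a median standard error of 0.34, and the 2 arrays per group limit precision. No spot was saturated, and 37.8% to 48.2% of spots per array were well above background.

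Same-numbered replicates had deviations from their group means that correlated from -0.15 to 0.14 between groups, so the numbers were not taken to pair samples. The genes, lists and tests were chosen with earlier results of these data known. The text gives array values for the 3 genes of smallest p in each direction in comparisons with control and 2 in the others. It adds the others at an unadjusted p under 0.05, chosen after their values were seen, and gives the remaining genes by control level and range. A gene that the rule for other pathway genes would name is not reported here. Alternatives covered background correction, scaling, filters, probe choice, an intensity trend, the replicate block, the deposited table and leaving out each array. Python 3.11.15 with matplotlib 3.10.9 drew the figures.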

Additional observations from a re-analysis of the deposited data

Results flagged for a closer look

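Psap was singled out because SEMA3E at 2 h and at 8 h lay on opposite sides of control: both 2 h arrays were below both controls and both 8 h arrays above them. The difference between the times was 1.78 on the log2 scale. It was tested by limma over all genes and did not pass, with an adjusted p of 0.373. The 3 lowest arrays for Psap were the 3 of lowest overall signal, and the part of that in the difference was not tested.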

How the results depend on the processing

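With 2 arrays per group, only large differences could pass the test. Under the alternatives that kept all 8 arrays, 0 of the 33 genes passed in any comparison, although normexp background correction called 3460 of all genes after SEMA3E for 2 h, beside 0 as reported, and the deposited table called 9 to 28 genes per comparison, beside 0 or 1. The replicate block left the SEMA3E 8 h median at 0.24 and called 7 of all genes there, and the replicate numbers were not shown to pair samples. Leaving out 1 array at a time, 0 to 2 genes passed for SEMA3E 2 h against control and 0 to 3 for SEMA3E 8 h against SEMA3E 2 h, where Atp6v1h, Becn1 and Tfeb passed without SEMA3E 2 h replicate 1, with 460 of all genes, and 0 passed elsewhere. The medians then ran from 0.10 to 0.37 for SEMA3E 2 h and from 0.10 to 0.36 for SEMA3E 8 h against control. They ran from -0.0902 to 0.11 for cytochalasin D against control, from -0.40 to -0.19 against SEMA3E 8 h, and from -0.0637 to 0.14 for SEMA3E 8 h against 2 h. Quantile normalization gave 0.12 for SEMA3E 2 h. The 75th percentile over all probes gave 0.023 for SEMA3E 8 h, 0.034 for cytochalasin D against SEMA3E 8 h and -0.20 for 8 h against 2 h. Scaling to the median of detected probes gave 0.36, -0.087 and -0.15 for SEMA3E 2 h, cytochalasin D against SEMA3E 8 h and 8 h against 2 h. Averaging each gene's probes gave -0.33 and 0.19, and the deposited table -0.33 and 0.16, for the last 2 of these. Scaling shifts all genes alike: the median of all genes moved from 0.06 to 0.18 for SEMA3E 2 h with the median of detected probes, and from 0.12 to -0.10 for SEMA3E 8 h with all probes. When its probes were averaged, signs turned for Ctsd (-0.054) and Gabarap (-0.18) at 2 h and for Atg7 at 8 h (0.79), with cytochalasin D against SEMA3E 8 h (-0.60) and 8 h against 2 h (0.53). With the deposited table these were -0.10, -0.23, 0.75, -0.59 and 0.53, and Sqstm1 in 8 h against 2 h was -0.43. Without control replicate 1 the SEMA3E 8 h differences of Mcoln1 and Atg7 turned, in ranges from -0.29 to 0.089 and from -0.39 to 0.22. Averaging brings in the probes of opposite sign, and the cause was not tested for the other changes.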

Other observations

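A further 133 genes of the same pathways were listed by role, and 124 of them were tested. None passed the test (limma, Benjamini-Hochberg adjusted p under 0.05) in any comparison. After SEMA3E for 8 h, 25 of 33 other lysosomal enzymes, 12 of 14 other proton pump subunits, 13 of 15 other lysosomal membrane proteins and 27 of 39 other autophagy genes were higher than control, beside 63.3% of all genes. The 23 tested genes of nutrient sensing and sorting split into 11 higher and 12 lower. Under the 75th percentile over all probes these counts at 8 h were 16 of 33, 7 of 14, 4 of 15, 18 of 39 and 6 of 23, beside 41.1% of all genes. After SEMA3E for 2 h the 124 genes split into 55 higher and 69 lower, with a median difference of -0.03, where 54.9% of all genes were higher. The other autophagy genes had 9 higher and 30 lower, with a median of -0.19, whereas 11 of the 13 autophagy genes of the main set were higher, with a median of 0.32. At an unadjusted p under 0.05, 9 of the 124 (7.26%) differed at 2 h, beside 9.49% of all genes. There were 2 (1.61%) after SEMA3E for 8 h, beside 6.13%, and 3 (2.42%) with cytochalasin D, beside 2.44%. Cytochalasin D against SEMA3E 8 h gave 8 (6.45%), beside 11%, and SEMA3E 8 h against SEMA3E 2 h gave 15 (12.1%), beside 11.6%.

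The genes with the smallest p in a direction are given for each comparison. After SEMA3E for 2 h they were Atg9a, an autophagy membrane protein, at 1.77 ± 0.48 (SE, limma, adjusted p = 0.466), and Rptor, the raptor subunit of mTORC1, at -0.80 ± 0.25 (adjusted p = 0.502). Both SEMA3E 2 h arrays lay below the other 6 for Rptor. Atg9a gave -7.01 and -7.56 in control and -5.66 and -5.39 after SEMA3E for 2 h. It gave -5.96 and -7.40 after SEMA3E for 8 h, and -8.20 and -8.58 with cytochalasin D. These levels are low. Dcn and Adgre1, at mean control levels of -7.87 and -7.81, were well above background on 2 and 3 arrays. The second Atg7 probe, at -6.98 to -4.26, was so on all 8. Levels of other probes do not give the background mark of Atg9a, which is not given here. The SEMA3E 2 h arrays were also among the 3 of lowest overall signal. The part of background and of overall signal in the Atg9a difference was not tested. After SEMA3E for 8 h the smallest p among the lower genes belonged to Stx17, the syntaxin of autophagosomes, at -0.46 ± 0.31 (limma, adjusted p = 0.880). With cytochalasin D they were Gm2a, a lipid carrier for beta-hexosaminidase, at 1.49 ± 0.67 and Lipa, the lysosomal acid lipase, at -0.87 ± 0.31 (limma, both adjusted p = 0.9997). Gm2a gave -3.63 and -2.45 in control, and -2.33 and -0.77 with cytochalasin D. The higher of these, replicate 2, was also among the 3 arrays of lowest overall signal. Lipa gave -3.21 and -3.48 in control, -2.89 and -3.17 after SEMA3E for 2 h, -2.75 and -2.96 after SEMA3E for 8 h, and -3.87 and -4.56 with cytochalasin D. Both cytochalasin D arrays were the lowest, and the difference from SEMA3E 8 h was -1.36 ± 0.31 (limma, adjusted p = 0.413). In that comparison Mlst8, a subunit shared by the mTOR complexes, was at 0.72 ± 0.31 (adjusted p = 0.455). SEMA3E 8 h against SEMA3E 2 h gave 2.27 ± 0.56 for Optn, an autophagy receptor, and -0.75 ± 0.30 for Lamp3, a LAMP family member (limma, adjusted p = 0.373 and 0.420). Optn gave -5.80 and -4.01 in control, -6.36 and -6.05 after SEMA3E for 2 h, and -4.11 and -3.76 after SEMA3E for 8 h. The part of overall signal in the Gm2a and Optn differences was not tested.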
